A study of Homo sapiens with 8 samples.

Results

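The LIM homeobox genes examined here were LHX1, LHX2, LHX3, LHX4, LHX5, LHX6, LHX8, LHX9, ISL1 and ISL2, 10 of the 20136 protein-coding genes of the annotation. They were listed by name as members of a gene family. Each gene was represented by its body plus 2000 bp upstream, called its stretch. The data were ChIP-seq island lists for H3K27me3 and H3K4me3 in PC9, a human lung adenocarcinoma cell line, treated for 5 days with DMSO (the vehicle) or with 1 μM GSK126, a small molecule inhibitor of the H3K27 methyltransferase EZH2. There were 2 libraries for each mark and treatment, or 8 in all, and D. melanogaster chromatin with an antibody against H2Av, a fly histone variant, served as a spike-in. All libraries came from this single cell line.

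LIM homeobox genes encode transcription factors that join a DNA-binding homeodomain to a pair of zinc-binding LIM domains, and the LIM domains hold the cofactor LDB1. In the embryo the family sets the identity of motor neurons, interneurons, pituitary, eye, gonad and kidney cells, and it is best known from neurons and embryonic organs rather than from lung epithelium. Genes of this kind are textbook targets of Polycomb repressive complex 2, which contains EZH2 and deposits H3K27me3, whereas H3K4me3 marks the starts of genes that are active or poised. Starts that carry both marks are called bivalent.

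Base composition of the sequence just before each gene start is shown for 4 members, because they stand for the 4 combinations of marks found at gene starts in DMSO. LHX1 carried H3K4me3 alone, LHX5 carried H3K27me3 alone, LHX9 carried both and ISL1 carried neither. Each line gives the 250 bases before the annotated start on the gene's strand, read from GRCh37, with CG dinucleotides in capitals.
LHX1 (chr17:35293834-35294083, plus strand): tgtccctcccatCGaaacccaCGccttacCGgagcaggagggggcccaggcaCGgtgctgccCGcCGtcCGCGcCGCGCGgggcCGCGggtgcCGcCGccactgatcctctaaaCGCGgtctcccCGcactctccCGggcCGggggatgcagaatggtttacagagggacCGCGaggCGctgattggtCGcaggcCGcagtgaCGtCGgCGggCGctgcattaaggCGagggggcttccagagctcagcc
LHX5 (chr12:113910086-113910335, minus strand): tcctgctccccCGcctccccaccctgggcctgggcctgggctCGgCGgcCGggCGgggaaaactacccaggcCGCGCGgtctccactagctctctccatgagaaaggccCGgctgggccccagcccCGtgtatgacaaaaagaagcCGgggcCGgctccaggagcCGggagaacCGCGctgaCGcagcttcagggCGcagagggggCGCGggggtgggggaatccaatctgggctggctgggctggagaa
LHX9 (chr1:197880782-197881031, plus strand): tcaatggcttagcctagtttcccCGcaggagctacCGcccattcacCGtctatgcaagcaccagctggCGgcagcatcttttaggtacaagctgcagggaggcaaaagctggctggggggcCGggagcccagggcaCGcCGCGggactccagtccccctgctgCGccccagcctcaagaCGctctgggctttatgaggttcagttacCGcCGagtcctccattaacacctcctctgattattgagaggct
ISL1 (chr5:50679032-50679281, plus strand): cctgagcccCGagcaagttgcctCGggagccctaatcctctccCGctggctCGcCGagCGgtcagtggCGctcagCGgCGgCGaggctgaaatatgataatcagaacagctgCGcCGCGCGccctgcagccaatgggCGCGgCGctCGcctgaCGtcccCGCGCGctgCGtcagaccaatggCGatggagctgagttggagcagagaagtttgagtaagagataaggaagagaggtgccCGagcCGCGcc
These windows held 30 CG dinucleotides for LHX1, 27 for ISL1, 19 for LHX5 and 12 for LHX9. Among all protein-coding genes, 12.5% of windows of the same length held at least as many as LHX1, compared with 17.9% for ISL1, 37.3% for LHX5 and 55.6% for LHX9. The other members ranged from 1 in LHX6 to 30 in LHX4, and the median was 17.5 for the 10 members and 14 for all genes, of which 96.3% held at least 1. LHX1 and ISL1 were close in CG count and differed in H3K4me3, and LHX5 and LHX9 had fewer CG dinucleotides than either and carried H3K27me3. These 4 genes were picked by their marks, so they show no relation between CG count and marks, which was not tested. Each window lies before a single annotated start, and LHX6 has 11 transcript starts.

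The files list islands, which are regions that the SICER algorithm found to be enriched in tags, each with a score and without tag counts. The H3K27me3 libraries came with lists of both normalizations. In the standard normalization, tags of the larger library of a replicate had been removed until both held the same number, and in the spike-in normalization, tags of the GSK126 library had been removed in proportion to its D. melanogaster tags. The scores gave back the mean number of tags per 200-bp window behind each list. For H3K27me3 with spike-in normalization it was 1.65 for DMSO replicate 1, 2.33 for DMSO replicate 2, 0.382 for GSK126 replicate 1 and 0.455 for GSK126 replicate 2, so that the GSK126 lists rested on 0.231 and 0.196 of the tags of their DMSO partners. These shares match the factors that the study gives for tags of the whole D. melanogaster genome. Its factors from regions bound by H2Av, the mapping it calls primary, were higher, more so in replicate 2. What lists made with those factors would hold was not tested. The standard lists rested on 1.36 and 1.55 tags per window with either treatment. For H3K4me3, replicate 2 was shallower (0.302 tags per window with DMSO) than replicate 1 (1.77). A list made from fewer tags can hold fewer and shorter islands, and with spike-in normalization the removal of tags is itself the correction, so these effects cannot be told apart in the covered length. As a check of the cell type, 4 of 5 epithelial markers (CDH1, KRT8, KRT18 and KRT19) had their start inside an H3K4me3 island in both DMSO replicates and EPCAM in replicate 1, while 0 of 4 blood markers did.

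In DMSO, H3K27me3 lay over 8 of the 10 LIM homeobox genes in both replicates, whereas LHX1 and ISL1 had none in any list of either treatment. Of all protein-coding genes, 27.7% had an H3K27me3 island in their stretch in both DMSO replicates. In the lists made with every DMSO tag, LHX6, which guides cortical interneurons, was the most completely covered, with 100% and 97.2% of its 29.0 kb stretch under islands in replicates 1 and 2. LHX5, a regulator of hippocampal and forebrain development, had 97.0% and 92.1% of 12.2 kb covered. LHX2, which is needed for the eye and the cortex, had 82.8% and 91.7% of 33.6 kb covered. These 3 genes were covered over nearly their whole length.

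Coverage of the other members was partial. ISL2, a motor neuron gene, had 59.7% and 62.5% of its 7.70 kb stretch covered, and LHX4, which acts with LHX3 in the pituitary, had 45.0% and 47.7% of 50.7 kb. LHX3 itself had 34.1% and 50.6% of 10.9 kb, and its replicates spanned those of LHX4 and LHX9, so the order among these 3 genes was not resolved. LHX9, a gene of the developing gonad, had 40.5% of 25.6 kb in each replicate, and LHX8, which acts in cholinergic neurons and oocytes, had 25.9% of 35.1 kb in each. The DMSO replicates differed most for LHX3 (42.3 ± 11.7%, SD, n = 2) and were equal for LHX8 and LHX9. The median of the 8 marked members was 52.3% and 56.6%, beside 41.4% and 45.2% for the 5573 genes marked in both replicates.

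The islands also differed in where they lay (map of islands around the gene starts). Over LHX5 a single island of 28.6 kb in replicate 1 and 28.0 kb in replicate 2 ran from 18.7 kb upstream of the start to 9.88 and 9.28 kb into the gene. Over LHX6 the largest island of replicate 1 measured 34.0 kb (chr9:124963401-124997400, GRCh37) and spanned the whole gene. LHX8 and LHX9 carried 1 island each, of 11.2 and 11.4 kb in replicate 1, that covered the start and the first 7.08 and 8.37 kb of the gene. In LHX3 and ISL2 the island began inside the gene, 5.17 and 3.37 kb past the start of LHX3 in replicates 1 and 2 and 0.487 and 0.887 kb past that of ISL2. In LHX4 the start lay in a gap between islands, and its exons were nearly free of the mark (0% and 3.34% covered) while 50.2% and 53.0% of its introns were covered. The exons of LHX2 and LHX6 were covered over 100% of their length in both replicates. None of the largest islands of the 8 genes in replicate 1 reached the stretch of another protein-coding gene (0 in each case).

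**Figure D1:**
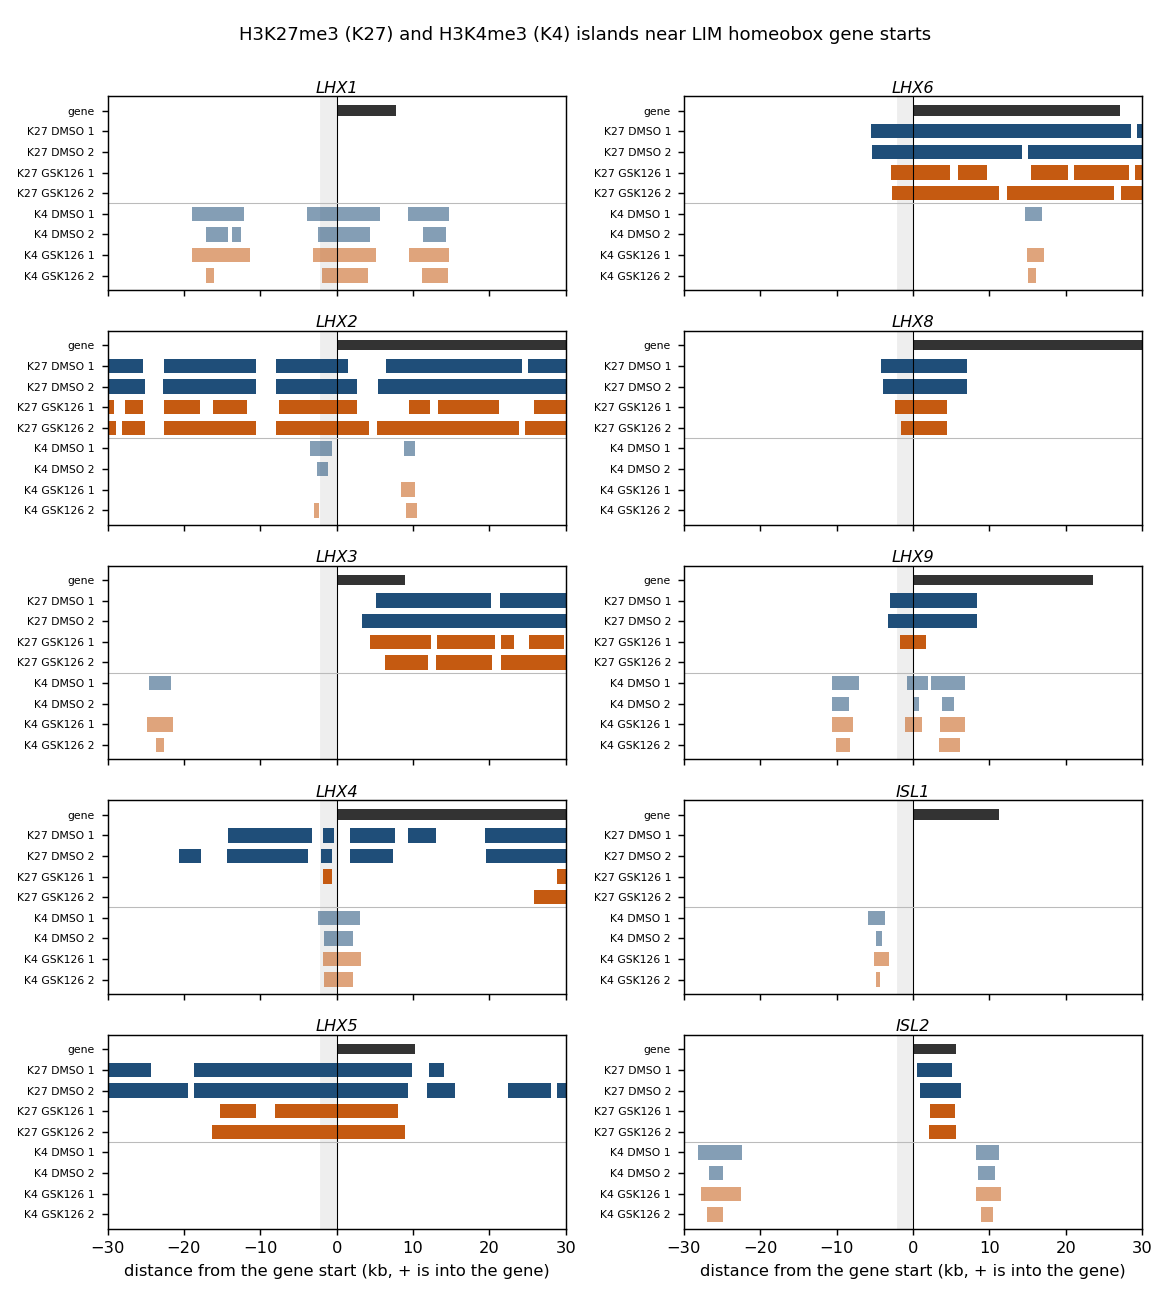
Islands of H3K27me3 (K27, upper rows) and H3K4me3 (K4, lower rows, paler) within 30 kb of the start of each LIM homeobox gene, with spike-in normalization, DMSO in blue and GSK126 in orange. The horizontal axis is the distance from the gene start in kb, the black bar is the gene and the grey band is the 2000 bp upstream. LHX1 and ISL1 have no H3K27me3 island in this window, and the island over the start of LHX9 is absent in GSK126 replicate 2.

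The question addressed by the treatment was whether inhibition of EZH2 removed H3K27me3 from a locus, and whether the normalization let this be seen. With spike-in normalization, 6 of the 8 marked LIM homeobox genes had a smaller covered length with GSK126 than with DMSO in both replicates, beside 89.7% of all marked genes. A reduction of at least 2-fold in both replicates was found for LHX4 and LHX9, or 2 of 8, beside 56.3% of all marked genes. The smallest p that flipping the signs of 2 pairs in an exact test allows is 0.5, so none is given, and differences are set against the spread between replicates.

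LHX4 and LHX9 had the largest mean differences in covered share among the members, and their order turned in replicate 2. Its covered share was 45.0% and 47.7% with DMSO and 7.89% and 13.0% with GSK126, a difference of -35.9 ± 1.67 percentage points (SD, n = 2). The treatments did not overlap, and the remaining islands lay mostly deep in the gene, 28.8 kb past the start in replicate 1 and 25.8 kb in replicate 2. In LHX9 the covered share was 40.5% in both DMSO replicates, 13.3% in GSK126 replicate 1 and 0% in GSK126 replicate 2. The difference for LHX9 was -33.9 ± 9.40 percentage points (SD, n = 2), and in replicate 2 the list held no H3K27me3 island within 3108 kb of the stretch.

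ISL2 and LHX8 had smaller differences, of like size in both replicates. ISL2 was covered over 59.7% and 62.5% with DMSO and over 41.5% and 46.7% with GSK126, a difference of -16.98 ± 1.69 percentage points (SD, n = 2). LHX8 was covered over 25.9% and 25.9% with DMSO and over 18.5% and 17.1% with GSK126, a difference of -8.09 ± 0.971 percentage points (SD, n = 2). In both genes the GSK126 values lay below the DMSO values, and the island over each was shorter, going from 11.2 to 6.80 kb for LHX8 and from 4.60 to 3.20 kb for ISL2 in replicate 1. Both depended on the threshold. When islands needed a score at least 2 times the lowest of their list, the difference was -61.1 percentage points for ISL2, the largest of the 4 genes, and -16.6 for LHX8, beside -40.5 for LHX9 and -36.3 for LHX4. Within 5000 bp of the start it was -26.2 for LHX8, -15 for ISL2, -64.3 for LHX9 and -55.0 for LHX4. In that window the other marked members were at -22.5 (LHX6), -5 (LHX3), 0 (LHX5) and 14 (LHX2), so LHX2 was more covered with GSK126.

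The most completely covered genes kept most of their covered length. LHX5 had 97.0% and 92.1% with DMSO and 82.3% and 88.9% with GSK126, and LHX6 had 100% and 97.2% with DMSO and 73.8% and 94.0% with GSK126. For both, every GSK126 value was below every DMSO value, but the differences of -8.98 ± 8.08 and -14.7 ± 16.2 percentage points (SD, n = 2) were close to or within the spread between replicates. LHX2 was covered over 82.8% and 91.7% with DMSO and over 62.0% and 94.6% with GSK126, so that replicate 1 was lower and replicate 2 higher with the inhibitor. LHX3 went the other way, covered over 34.1% and 50.6% with DMSO and over 41.4% and 23.0% with GSK126. The treatments overlapped for LHX2 and LHX3, and no direction was shared by their replicates. Over the 8 marked members the median ratio of covered length was 0.726 and 0.704, beside 0.302 and 0.279 over all marked genes.

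**Figure D2:**
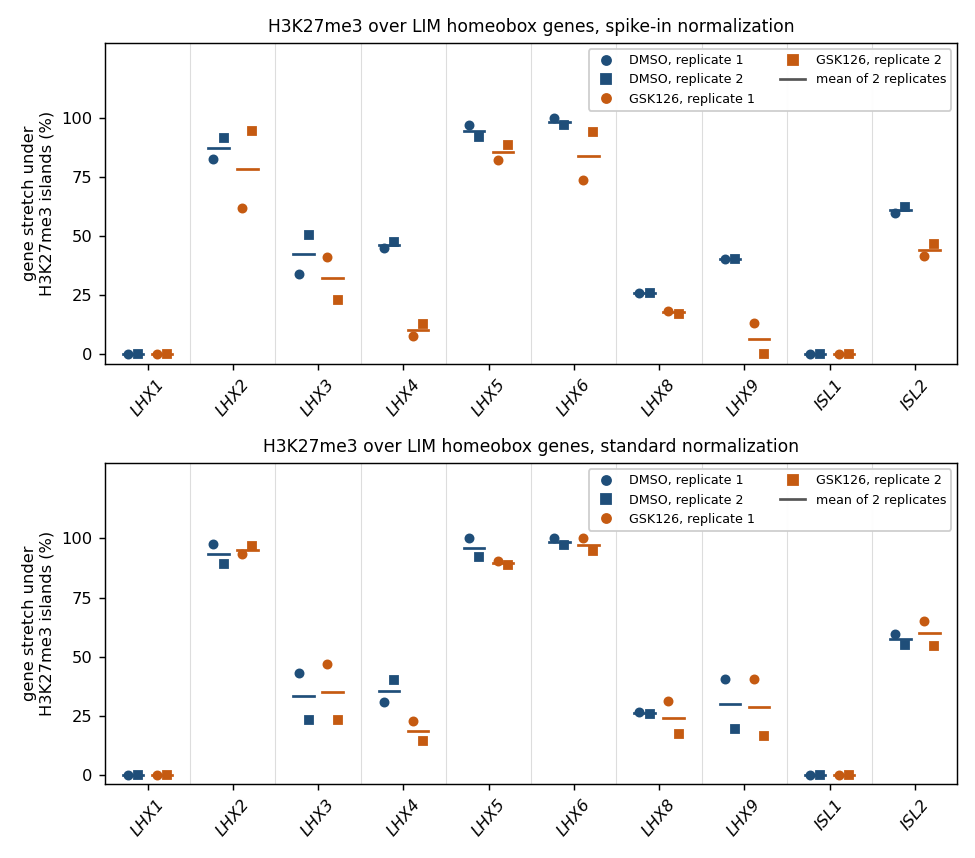
Share of each gene stretch under H3K27me3 islands (percent, vertical axis) in each library, with spike-in normalization above and standard normalization below. Circles are replicate 1, squares are replicate 2, and bars are the mean of 2 replicates. With spike-in normalization the GSK126 values of LHX4 are 7.89% and 13.0%, below its DMSO values of 45.0% and 47.7%, whereas LHX2 overlaps between treatments.

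When the tags of each pair were instead brought to equal numbers, most members did not differ in the same direction in both replicates. In the standard lists, 2 of the 8 marked members, LHX4 and LHX5, had a smaller covered length with GSK126 in both replicates, beside 56.3% of the 5101 genes marked in both DMSO replicates of this normalization. A reduction of at least 2-fold in both replicates was found for 0 of 8 members, beside 15.7% of all marked genes. LHX4 was covered over 30.8% and 40.2% with DMSO and over 22.9% and 14.2% with GSK126, a difference of -16.95 ± 12.8 percentage points (SD, n = 2), and the treatments did not overlap. LHX5 was covered over 100% and 92.1% with DMSO and over 90.5% and 88.9% with GSK126, also without overlap. LHX9 was unchanged in replicate 1, at 40.5% with either treatment, and was covered over 19.4% with DMSO and 16.4% with GSK126 in replicate 2. ISL2, LHX2 and LHX8 differed in direction between replicates, and LHX3 and LHX6 were equal between treatments in 1 of them. The median ratio of the 8 members was 1.00 and 0.968, beside 0.912 and 0.750 for all marked genes. The standard and spike-in lists of a library are subsets of the same tags and are not separate measurements.

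The covered length does not say how many tags an island holds, and the scores allowed this to be read in 2 ways. The tag density of a gene is the number of tags per 200-bp window that gives the mean score of its islands. Averaged over the stretch, with bases outside islands counted as 0, it combines the covered length with the density of the islands. Taken inside islands only, it leaves uncovered bases out, and it can rise when weaker parts fall under the island threshold. Over the stretch, with spike-in normalization, it was lower with GSK126 in both replicates for 8 of 8 marked members, LHX2 and LHX3 included, beside 99.9% of all marked genes. Inside islands it was lower in both replicates for 7 of the 7 members with islands in all 4 libraries, beside 99.7% of the 3121 genes of that kind. LHX9 had no island in GSK126 replicate 2.

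LHX5 had 9.62 and 15.1 tags per window of its stretch with DMSO and 2.95 and 4.29 with GSK126, a ratio of 0.295 ± 0.0165 (SD, n = 2). LHX2 had 7.85 and 12.3 tags per window with DMSO and 1.93 and 4.32 with GSK126, a ratio of 0.299 ± 0.0742 (SD, n = 2). As ratios these were the smallest decreases among the 8 genes, although in tags per window LHX5 had the largest, at -8.76 ± 2.96 (SD, n = 2). Inside islands the ratios of LHX5 and LHX2 were 0.327 ± 0.0479 and 0.335 ± 0.00810 (SD, n = 2), close to those over the stretch.

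LHX4 differed most between the measures. Over its stretch it had 2.75 and 3.81 tags per window with DMSO and 0.243 and 0.225 with GSK126, which was 11.3-fold and 16.96-fold lower. Inside islands it had 6.11 and 7.98 with DMSO and 3.08 and 1.73 with GSK126, or 1.98-fold and 4.63-fold lower, and the rest of the difference was covered length. LHX9 had 2.56 and 2.93 tags per window of its stretch with DMSO and 0.292 and 0 with GSK126, and inside the island that remained in replicate 1 the density was 2.20, beside 6.31 with DMSO. The remaining 4 genes had ratios over the stretch of 0.246 ± 0.0232 for LHX6, 0.153 ± 0.0397 for LHX8, 0.153 ± 0.00208 for ISL2 and 0.143 ± 0.0724 for LHX3 (SD, n = 2). Inside islands these became 0.291 ± 0.0280, 0.222 ± 0.0457, 0.212 ± 0.0137 and 0.181 ± 0.0300 (SD, n = 2), in the same order.

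LHX2 and LHX3, which had overlapped between treatments in covered length, did not overlap in density over the stretch. A lower density in both replicates was found for 99.9% of all marked genes, so this was not particular to these members. Over LHX2 the islands of GSK126 replicate 2 covered 94.6% of the stretch at 4.32 tags per window, beside 91.7% at 12.3 with DMSO, so a similar length was covered by fewer tags. The lists as a whole rested on 0.231 and 0.196 of the DMSO tags. Both measures put LHX2 and LHX5 above these ratios in both replicates. LHX4 was below them over the stretch and above them inside islands, where its ratios were 0.504 and 0.216. Over the stretch the median ratio of the 8 members was 0.188 and 0.138, beside 0.106 and 0.0821 over all marked genes, whose lower quartile was 0 in both replicates.

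The standard lists of a replicate rest on equal numbers of tags, so a density there is a share of the library. Over the stretch, LHX2, LHX3, LHX5 and LHX6 were denser with GSK126 in both replicates (4 of 8, beside 28.7% of all marked genes), and LHX4, LHX8, LHX9 and ISL2 were less dense in both (4 of 8, beside 52.2%). Some of these differences were small. The ratios of LHX3 were 1.04 and 1.02 and its treatments overlapped, so its direction was not resolved. Ratios in replicates 1 and 2 were 0.969 and 0.690 for LHX8 and 0.740 and 0.970 for ISL2. Inside islands, LHX2, LHX4, LHX5 and LHX6 were denser in both (4 of 8, beside 54.5% of the 4114 genes with islands in all 4 libraries), LHX9 and ISL2 were less dense in both (2 of 8, beside 21.9%), and LHX3 and LHX8 differed in direction between replicates. The direction thus held in both measures for LHX2, LHX5, LHX6, LHX9 and ISL2. It turned for LHX4, whose covered length was smaller in both replicates, so fewer bases entered its density inside islands. The covered length of LHX5 was also smaller in both replicates without such a turn, and the cause was not tested.

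LHX2 had 7.25 and 8.02 tags per window of its stretch with DMSO and 9.30 and 15.0 with GSK126, without overlap between treatments. LHX5 went from 7.97 to 9.70 and from 12.6 to 15.0, a ratio of 1.20 ± 0.0190 (SD, n = 2). The 3 genes covered over nearly their whole length in DMSO, LHX2, LHX5 and LHX6, were denser with the inhibitor by either measure. LHX4 went from 1.81 to 1.45 and from 2.33 to 0.846 over the stretch, but from 5.88 to 6.34 and from 5.79 to 5.96 inside islands. LHX9 went from 2.13 to 1.77 and from 1.25 to 0.676 over the stretch, and from 5.25 to 4.36 and from 6.45 to 4.11 inside islands. The spike-in and standard values come from the same tags and are not separate measurements.

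**Figure D3:**
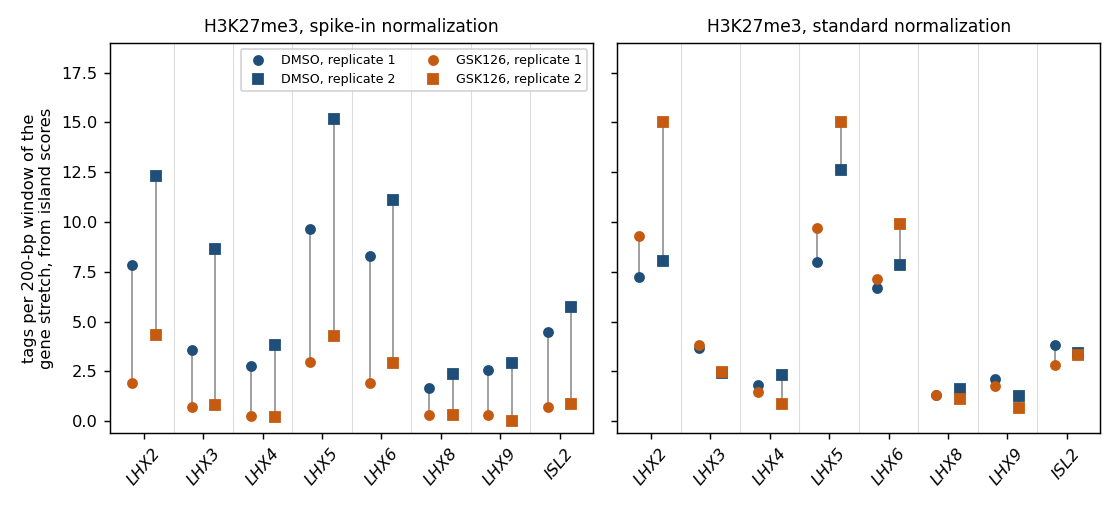
H3K27me3 tags per 200-bp window of the gene stretch, read from island scores (vertical axis), for the 8 marked LIM homeobox genes, with spike-in normalization on the left and standard normalization on the right. Grey lines join DMSO (blue) and GSK126 (orange) of the same replicate, circles being replicate 1 and squares replicate 2. On the left every line runs downward from DMSO to GSK126, and on the right LHX2, LHX3, LHX5 and LHX6 run upward while LHX4, LHX8, LHX9 and ISL2 run downward. The lines of LHX3 on the right rise only slightly, to 1.04 and 1.02 times DMSO. Bases outside islands count as 0, and inside islands LHX4 was denser with GSK126 in both replicates of the standard lists, at 6.34 beside 5.88 and 5.96 beside 5.79.

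H3K4me3, a mark that EZH2 does not deposit, was measured in cells given the same treatments. In DMSO it lay over 4 of the 10 members in both replicates (LHX1, LHX2, LHX4 and LHX9), beside 67.9% of all protein-coding genes, and over LHX6 in replicate 1 alone. LHX3, LHX5, LHX8, ISL1 and ISL2 had none in any list. LHX1, a gene of the kidney and of the embryonic head organizer, stood out, with 78.5% and 64.3% of its 9.83 kb stretch covered in DMSO replicates 1 and 2. LHX9 had 28.2% and 9.38%, LHX4 had 9.86% and 7.49%, and LHX2 had 8.48% and 2.53%. Replicate 1 was higher for each of these genes, and it was also the deeper library, whose part in this was not tested.

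The island over the start of LHX1 measured 9.60 kb and 6.80 kb in DMSO replicates 1 and 2 (chr17:35290201-35299800 in replicate 1, GRCh37), and further H3K4me3 islands lay 12.1 kb upstream and 9.32 kb downstream of the start in replicate 1. The nearest H3K27me3 island was 54.7 kb and 38.3 kb from the stretch in DMSO. Its density inside the islands was 72.3 and 17.1 tags per window, compared with 65.5 and 25.7 for the actin gene ACTB. ISL1, the gene of motor neurons, heart progenitors and pancreatic islets, had no island of either mark in its stretch, and its nearest H3K4me3 island ended 3.68 and 4.08 kb before the start. The nearest H3K27me3 island to ISL1 lay 2085 and 2441 kb away. LHX1 and ISL1 thus shared the absence of H3K27me3 and differed in H3K4me3.

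Counted at the annotated gene start in both DMSO replicates, H3K27me3 was present at 5 of 10 members (LHX2, LHX5, LHX6, LHX8 and LHX9), beside 14.9% of all protein-coding genes. H3K4me3 was present at the starts of LHX1, LHX4 and LHX9, or 3 of 10, beside 55.8%. Both marks met at LHX9 alone, 1 of 10 beside 2.8%, where the H3K4me3 island of DMSO replicate 2 measured 0.800 kb. With a score at least 2 times the lowest of the list no member had both marks (0 of 10), and with an island within 1000 bp of the start accepted LHX4 joined LHX9 (2 of 10). The share of all protein-coding genes is not given under these other rules, so these counts cannot be set against the 2.8%. All 8 annotated transcript starts of LHX9 lay inside H3K27me3 islands and 6 of them also inside H3K4me3 islands. In LHX2 and LHX9 the H3K4me3 of both DMSO replicates lay entirely inside H3K27me3 islands (100% of its length), as did the single island of LHX6 in replicate 1. In LHX4 it was 52.0% and 36.8%, since its H3K4me3 island filled the gap that H3K27me3 left at the start. Signals from different cells or alleles cannot be told apart in these libraries.

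With GSK126 the starts of LHX1 and LHX4 stayed inside H3K4me3 islands in both replicates. The H3K4me3 share of LHX1 was 72.4% and 61.0% with GSK126, below the DMSO value of the same replicate in both pairs, with a difference of -4.66 ± 2.04 percentage points (SD, n = 2). The treatments overlapped, since replicate 1 with GSK126 was above replicate 2 with DMSO. This was 1 of 4 marked members with a smaller covered length in both replicates, beside 37.1% of all marked genes with spike-in and 37.8% with standard normalization, where LHX1 was again the only member. LHX4 had 9.86% and 7.49% with GSK126, with no difference in replicate 2 and a difference of -0.00394 percentage points in replicate 1. LHX9 had 21.1% and 10.9%, lower than DMSO in replicate 1 and higher in replicate 2. LHX2 had 5.35% and 4.16%, again in opposite directions, but its stretch joined separate sites. Its 2000 bp upstream were covered over 72.6% and 42.6% with DMSO and over 0% in both replicates with GSK126, in either normalization. The spike-in list of GSK126 replicate 2 held an island just beyond them, 2.35 to 2.95 kb upstream. Inside the stretch, the GSK126 islands began 8.45 and 9.05 kb past the start. DMSO replicate 1 had an island there and DMSO replicate 2 had none. The cause was not tested. LHX6 had 7.57% and 3.44%, and its replicate 2 had no island with DMSO. No member without H3K4me3 in DMSO gained an island in both replicates.

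At LHX9 both marks at the start differed between replicates with the inhibitor. In GSK126 replicate 1 an H3K27me3 island of 3.40 kb and an H3K4me3 island of 2.20 kb remained over the start. In replicate 2 neither spike-in list held an island there, although H3K4me3 was still found 3.37 to 6.17 kb into the gene. The equal-tag list of the same replicate did hold an H3K27me3 island of 4.20 kb over the start, so its absence depended on the normalization. With spike-in normalization, the share of the H3K4me3 of LHX9 inside H3K27me3 islands was 40.7% and 0% with GSK126, beside 100% in both DMSO replicates. In the equal-tag lists the H3K4me3 density of LHX9 was 4.88 and 0.512 tags per window with DMSO and 4.67 and 0.610 with GSK126. LHX4 was the only one of the 4 members that was less dense in both replicates on that scale (4.99 and 1.08 with DMSO, 4.98 and 0.716 with GSK126), beside 32.2% of all marked genes, and LHX1 was nearly equal, at 1.00 ± 0.00795 times the DMSO density (SD, n = 2).

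**Figure D4:**
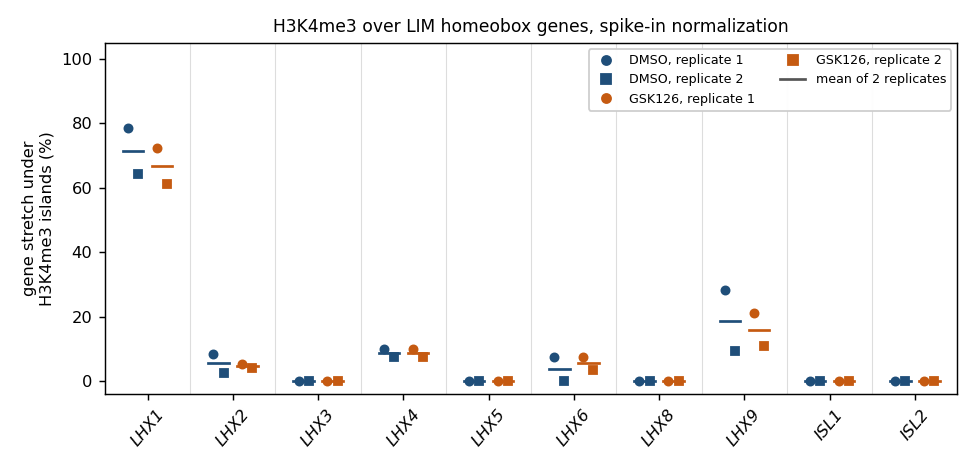
Share of each gene stretch under H3K4me3 islands (percent, vertical axis) in each library, with spike-in normalization for GSK126 and the single list for DMSO. Circles are replicate 1, squares are replicate 2, and bars are the mean of 2 replicates. LHX1 stands at 61.0% to 78.5% in all 4 libraries, LHX9 is the next highest, and LHX3, LHX5, LHX8, ISL1 and ISL2 are at 0.

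Genes that work with the LIM homeodomain factors were examined as a list of 12: the related factors LMX1A and LMX1B, the LIM-only proteins LMO1 to LMO4, which compete for the cofactor, the cofactors LDB1 and LDB2, the LDB-binding proteins SSBP2 to SSBP4 and RLIM, a ubiquitin ligase that acts on LDB proteins. H3K27me3 lay over 5 of the 12 in both DMSO replicates (LMX1A, LMX1B, LMO1, LMO2 and SSBP3), beside 27.7% of all protein-coding genes, and 7 carried H3K4me3, beside 67.9%. With spike-in normalization all 5 were less covered with GSK126 in both replicates (beside 89.7% of all marked genes), and LMX1A, LMO1 and SSBP3 at least 2-fold so (3 of 5, beside 56.3%). LMX1B, which patterns the dorsal limb, resembled LHX5 and LHX6, with 96.4% and 96.0% of its stretch covered with DMSO and 79.8% and 87.9% with GSK126. LMO2, a regulator of blood stem cells, had 97.0% and 95.5% with DMSO and 91.9% and 92.5% with GSK126. LMO1 had 42.7% and 40.0% with DMSO and 9.48% and 7.76% with GSK126. In the equal-tag lists LMX1B and LMO2 were denser with GSK126 in both replicates over the stretch, and LMX1A, LMO1 and SSBP3 were less dense in both. Inside islands all 5 were denser in both, for example LMO1 with 3.49 and 5.23 tags per window with DMSO and 6.03 and 11.1 with GSK126.

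Several of the 12 carried H3K4me3 and no H3K27me3. LDB1, the partner through which these factors dimerize, had 63.8% and 40.3% of its stretch under H3K4me3 in DMSO and 63.8% and 27.7% with GSK126, and no H3K27me3 in any list. LMO4 had 43.5% and 31.8% under H3K4me3 in DMSO and 42.6% and 30.8% with GSK126. RLIM, SSBP2 and SSBP4 also had H3K4me3 at the start in both DMSO replicates and no H3K27me3 in any list, whereas LMO3 had neither mark and LDB2 had only 1.75% under H3K27me3 in DMSO replicate 2. For reference, MYT1, a neural gene used in the study as a locus with H3K27me3, had 92.1% and 94.9% of its stretch covered with DMSO and 82.8% and 87.5% with GSK126. The housekeeping gene GAPDH had no H3K27me3 in any list. ACTB, another housekeeping gene, had 6.08% and 18.7% of its stretch under H3K27me3 with DMSO and 0% in both replicates with GSK126, with spike-in normalization. In the standard lists it had 7.09% and 14.7% with DMSO and again 0% with GSK126. The annotated stretch of ACTB is long, at 39.5 kb, and its start lay in no H3K27me3 island of the spike-in lists. The study used the ACTB promoter as a negative control in its qPCR.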

How the data were processed

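Single-end tags of 50 nt had been mapped by the authors with BWA to hg19 and dm3 and reduced to unique, non-duplicate tags, and SICER had been run on each library against a random background (E-value 1, 200-bp windows, gaps of 600 bp with the H3K27me3 antibody and of 200 bp with the other). Replicates were not pooled. The deposited value of each island is a score, which adds up, window by window, minus the natural log of the chance that a Poisson background gives that tag number. The score depends on the tag number of the list and was not compared between lists directly.

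Covered lengths and gene stretches were computed with Python 3.11.15, NumPy 2.4.6 and SciPy 1.17.1 from the GENCODE annotation mapped to GRCh37, whose chromosomes contained every island. Tags per window of a list were fitted from islands of 1 or 2 windows, and tag densities were obtained by inverting the mean score. These steps were tested on simulated data. Densities read from scores of unevenly spread tags were 1.05 to 1.11 times the simulated ones over 9 settings, so they are slightly overstated. Plots were drawn with Matplotlib 3.10.9. Promoter sequences were read from the GRCh37 genome.

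Antibody and treatment came from the labels. Replicates were numbered in accession order, and they form pairs, since tag numbers had been matched inside each replicate. The labels name the spike-in for replicate 2, but spike-in lists were deposited for both. The H3K4me3 DMSO libraries have 1 list each here, used in both normalizations. The study calls its replicates biological, and the labels do not say whether they were separate cultures. All 10 members and the 12 related genes are named, with MYT1, ACTB and GAPDH for reference and the epithelial and blood markers. The members and lists were chosen with earlier results of these data known. A gene was counted as marked when both DMSO replicates had an island in its stretch. Alternatives were a stricter score, a minimum island length, other gene windows, other DMSO lists, leaving out a replicate, leaving out the pairing and, added after the data were seen, density inside islands only.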

Additional observations from a re-analysis of the deposited data

How the results depend on the processing

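The median difference in H3K27me3 covered share over the 10 members with spike-in normalization was -11.2 ± 7.36 percentage points (SD, n = 2), between -16.4 and -6.02 when a replicate was left out, -9.55 without the replicate pairing and -20.4 when islands needed a score at least 2 times the lowest of the list. This median includes LHX1 and ISL1, which had no H3K27me3 in any list. Over the 8 marked members it was -15.9 ± 5.08, beside -17.9 ± 0.660 over all marked genes (SD, n = 2). The log2 median ratio of H3K27me3 tag density was -2.63 ± 0.314 (SD, n = 2), between -2.86 and -2.41 when a replicate was left out, -2.73 without the pairing, -3.07 with the stricter score, -2.03 against the DMSO lists of the standard normalization and -1.95 inside islands only. The corresponding medians stayed within the spread between replicates for standard H3K27me3 lists (-0.740 percentage points, between -1.48 and 0 with a replicate left out, -0.688 without the pairing) and for both H3K4me3 comparisons. The H3K4me3 medians over all members say little, because 5 of the 10 have no island in any list, and over the 4 marked members the median was -1.92 ± 3.82 percentage points (SD, n = 2) with spike-in normalization. The count of members with both marks at the start in both DMSO replicates was 1 (LHX9). It was 0 with the stricter score, 2 with LHX4 added when an island within 1000 bp was accepted, and 1 with either replicate left out. Shares of all protein-coding genes are not given for these settings. The cause of these shifts was not tested. Of 160 values of single members under the alternatives, those that leave out a replicate not counted, 111 moved by no more than the spread between replicates and 49 by more. The lists hold no tag counts, so no counting interval was computed, and genes without an island may carry signal under the threshold.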
